A study of Mus musculus with 16 samples.

Results

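The 39 genes described here, out of 48526 in each deposited table, are markers of the visceral endoderm of the yolk sac, chosen by symbol as genes of serum proteins, lipid carriers, endocytosis and the brush border. All 39 symbols were found in both tables. They were picked by symbol, without a threshold on these values, but with earlier results of the same libraries known. Grouped by what their products do, they comprise 7 serum transport proteins and secreted carriers, 5 clotting proteins, 9 lipid carriers and lipoprotein assembly proteins, 4 endocytic receptors and adaptors, 4 brush border proteins, 4 membrane transporters, 3 lysosomal proteases and 3 regulators of transcription or growth.

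The visceral endoderm is the outer epithelial layer of the rodent yolk sac and nourishes the embryo before the placenta works. Its cells take up maternal protein through cubilin, amnionless and megalin at a dense brush border, digest it in lysosomes, and secrete serum proteins and lipoproteins much as the liver does later. At the stage studied, the yolk sac joins the embryo close to the forming heart and the foregut entrance.

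The libraries came from dissected cardiac regions of 16 C57BL/6J mouse embryos at embryonic day 8.5, in 2 lines with different Greb1l alleles, to ask how loss of this nuclear factor affects the heart tube. The groups were 4 G17 mutants (Greb1lex17/ex17, embryos 33, 36, 41 and 42) against 4 G17 controls (embryos 20, 29, 35 and 37), and 4 G3 mutants (Greb1lem1Cjean/em1Cjean, embryos 23, 29, 30 and 31) against 4 G3 controls (embryos 16, 18, 20 and 21). All controls are labelled wild-type littermates, and the labels give neither litter nor dissection or sequencing batch, so each allele is represented by 1 line and an unknown number of litters. Per-embryo values below follow these orders of embryos.

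Libraries held 32391421 to 49353025 reads counted in genes, with at least 1 read in 18002 to 22689 genes. Greb1l itself had 4215 ± 961 normalized reads in G17 mutants, against 9818 ± 508.1 in G17 controls (SD, n = 4 each), and 20140 ± 3377 in G3 mutants, against 10980 ± 1319 in G3 controls. Groups did not overlap in either line (exact two-sided permutation test, p = 0.0286 each, the smallest that 70 arrangements allow); a total over the gene does not show whether protein was made. The 10 cardiomyocyte markers, among them Tnnt2 and Myh6, were expressed in every embryo, with summed levels of 173090 to 250350 normalized reads in G17 mutants, 132550 to 236860 in G17 controls, 180740 to 230350 in G3 mutants and 171030 to 253330 in G3 controls.

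Promoters are shown for 3 clusters of members, Afp with Alb, the fibrinogen genes Fga, Fgb and Fgg, and Apoa1 with Apoa4, and for Cdhr2, the member with the smallest adjusted p over both lines. The choice was made with the motif matches known. Windows run from 250 bases before to 50 after the RefSeq start (GRCm38.p6) and were available for 34 of the 39 members, with 44 windows in all. Capitals mark the letters GTTAAT, the half-site of HNF1 factors, on either strand (ATTAAC on the other).
Afp (chr5:90490464-90490763, plus strand): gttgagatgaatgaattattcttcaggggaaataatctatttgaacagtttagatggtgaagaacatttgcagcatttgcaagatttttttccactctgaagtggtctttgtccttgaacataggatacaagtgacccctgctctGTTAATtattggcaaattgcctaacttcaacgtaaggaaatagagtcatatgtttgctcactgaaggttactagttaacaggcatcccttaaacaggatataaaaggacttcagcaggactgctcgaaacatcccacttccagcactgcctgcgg
Alb (chr5:90460620-90460919, plus strand): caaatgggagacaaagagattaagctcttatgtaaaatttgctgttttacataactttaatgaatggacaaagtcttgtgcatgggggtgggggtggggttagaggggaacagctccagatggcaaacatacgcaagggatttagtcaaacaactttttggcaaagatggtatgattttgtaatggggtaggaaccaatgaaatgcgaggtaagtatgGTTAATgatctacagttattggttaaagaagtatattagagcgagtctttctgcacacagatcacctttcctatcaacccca
Fga (chr3:83025903-83026202, plus strand): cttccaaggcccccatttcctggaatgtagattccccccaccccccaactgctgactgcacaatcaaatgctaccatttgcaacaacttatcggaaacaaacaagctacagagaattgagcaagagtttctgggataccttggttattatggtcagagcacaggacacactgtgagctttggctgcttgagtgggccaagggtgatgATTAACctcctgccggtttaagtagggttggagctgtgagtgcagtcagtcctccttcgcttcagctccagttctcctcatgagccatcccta
Fgb (chr3:83049814-83050113, minus strand): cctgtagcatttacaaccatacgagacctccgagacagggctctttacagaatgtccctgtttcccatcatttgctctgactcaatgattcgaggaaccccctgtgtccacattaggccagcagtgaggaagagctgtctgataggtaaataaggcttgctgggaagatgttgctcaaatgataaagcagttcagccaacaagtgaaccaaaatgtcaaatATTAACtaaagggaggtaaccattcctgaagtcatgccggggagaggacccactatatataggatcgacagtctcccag
Fgg (chr3:83007474-83007773, plus strand): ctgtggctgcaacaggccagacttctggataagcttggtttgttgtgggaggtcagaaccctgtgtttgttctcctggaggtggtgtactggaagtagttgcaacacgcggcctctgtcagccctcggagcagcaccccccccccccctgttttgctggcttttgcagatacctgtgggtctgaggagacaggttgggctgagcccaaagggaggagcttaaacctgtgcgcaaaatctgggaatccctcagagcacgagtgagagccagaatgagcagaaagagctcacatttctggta
Apoa1 (chr9:46228380-46228679, plus strand): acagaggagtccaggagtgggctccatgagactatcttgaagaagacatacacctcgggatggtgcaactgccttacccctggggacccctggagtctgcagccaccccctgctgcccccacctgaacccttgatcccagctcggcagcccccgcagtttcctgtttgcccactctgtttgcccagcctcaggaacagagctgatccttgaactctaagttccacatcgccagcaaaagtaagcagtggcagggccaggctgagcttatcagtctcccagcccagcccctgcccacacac
Apoa4 (chr9:46240594-46240893, plus strand): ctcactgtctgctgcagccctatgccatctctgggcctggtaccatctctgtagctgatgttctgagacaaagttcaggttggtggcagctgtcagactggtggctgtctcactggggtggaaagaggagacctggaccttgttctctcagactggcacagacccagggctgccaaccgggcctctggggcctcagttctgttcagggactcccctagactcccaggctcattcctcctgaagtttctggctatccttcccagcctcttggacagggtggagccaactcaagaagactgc
Cdhr2 (chr13:54701213-54701512, plus strand): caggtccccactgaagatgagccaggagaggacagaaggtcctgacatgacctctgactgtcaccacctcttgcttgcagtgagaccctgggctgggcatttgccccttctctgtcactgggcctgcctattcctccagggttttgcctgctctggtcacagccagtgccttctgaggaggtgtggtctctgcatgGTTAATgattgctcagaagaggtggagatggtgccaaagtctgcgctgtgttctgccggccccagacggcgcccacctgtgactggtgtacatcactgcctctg

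The windows of Fgg, Apoa1 and Apoa4 hold none of the motifs searched. Apoc2 and Apoe, also close to each other and not shown, each hold the HNF1 letters in 1 window. The HNF1 letters stood in 10 of the 44 member windows (22.7%), against 7.1% of all 32851 RefSeq windows of the same length, so most member windows lack them. For the other motifs searched on both strands, the shares were 2.3% of member windows against 0.47% of all windows for the HNF4 letters CAAAGTCCA, 11.4% against 11.18% for the GATA letters AGATAA, 6.8% against 3.65% for the FOXA letters TGTTTAC, and 0.0% against 2.75% for the CDX letters TTTATGG. These motifs do not overlap one another in the windows shown, and a match describes the letters only. Afp and Alb, which lie next to each other and both carry the HNF1 letters, differed in these libraries: Afp had reads in every embryo and Alb had 0 reads in all 16.

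In G17 mutants, 15 of the 37 members tested fell (40.5%) and 0 rose; over all genes tested, 1.16% were called lower and 1.87% higher. Since earlier results were known when the members were picked, these shares describe the set and are not independent support for its direction. Those that fell were the serum proteins Afp and Ttr, the lipid genes Apob, Apom, Apoa1, Apoa4, Mttp and Soat2, the endocytic genes Cubn and Dab2, the brush border cadherin Cdhr2, the transporters Abcc2, Slc39a8 and Slc13a4, and the protease Ctsh. All 37 log2 fold changes were negative, between -5.40 and -0.35, with a median of -1.97, against -0.01 over all genes. A log2 fold change is the mean of log2(normalized reads + 1) in mutants minus that in controls, given ± SE, and calls are at a Benjamini-Hochberg adjusted p under 0.05 in limma over all genes tested. In RNA of dissected tissue, fewer visceral endoderm cells, less RNA per cell and less yolk sac left in the dissection cannot be told apart.

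In G3 mutants, 0 of the 37 members tested passed in limma, where 1.63% of all genes were called lower and 2.35% higher. At an unadjusted p under 0.05 there were 11 members, edgeR called 0, and DESeq2 called 2, Cdhr2 and Slc39a8, both lower. Fold changes were negative for 35 members and positive for 2 (Cdhr5 and Slc16a10), with a median of -0.79 against 0.01 over all genes, and the smallest adjusted p was 0.11. A member that had a value of at least 10 normalized reads in at least 4 of a line's 8 embryos was tested; Alb and Apoc2 were not tested within either line.

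The mean of both lines' differences, fitted over all 16 embryos and so not independent of the tests within lines, was lower for 25 of 38 members tested (65.8%) and higher for 0, where 4.58% of all genes were called lower and 5.04% higher. Besides the 15 members above, Rbp4, Serpinf2, Spp2, Fga, Amn, Pdzk1, Ctsz, Lgmn, Cdx1 and Gpc3 passed. The median was -1.43, and also -1.43 without Apoc2, whose mutants were all at 0. For the difference between lines, G17 minus G3, 0 of 38 members passed in limma, edgeR or DESeq2, where 0.01% of all genes were called; 2 members had an unadjusted p under 0.05, and the median difference was -1.08. The larger G17 changes are therefore not shown to differ from those of G3.

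The G17 count depended on single embryos. Without control 20 or mutant 33, 26 and 25 members fell, where 1.72% and 1.38% of all genes were called lower. Without control 29 or control 37, 9 and 3 did, where 1.02% and 0.403% of all genes were. Without control 35, mutant 36, mutant 41 or mutant 42, 0 did, with 30 to 32 still at an unadjusted p under 0.05. In those 4 fits the genes called lower over the whole table numbered 53, 59, 70 and 50, against 206 with all embryos, and every G17 call among members kept its negative sign in all 8 fits. In the mean of both lines the count lay between 16, without G3 control 21, and 30, without G17 mutant 33. The shares of all genes called in these fits are not given here. Of the 25 members, 16 passed in all 16 such fits. The other 9 calls were all lost without G3 control 21: Fga and Apoa4 passed in 14 of 16 fits, Amn in 10, Gpc3 in 9, Serpinf2, Mttp and Lgmn in 6, and Pdzk1 and Ctsz in 5.

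**Figure D1:**
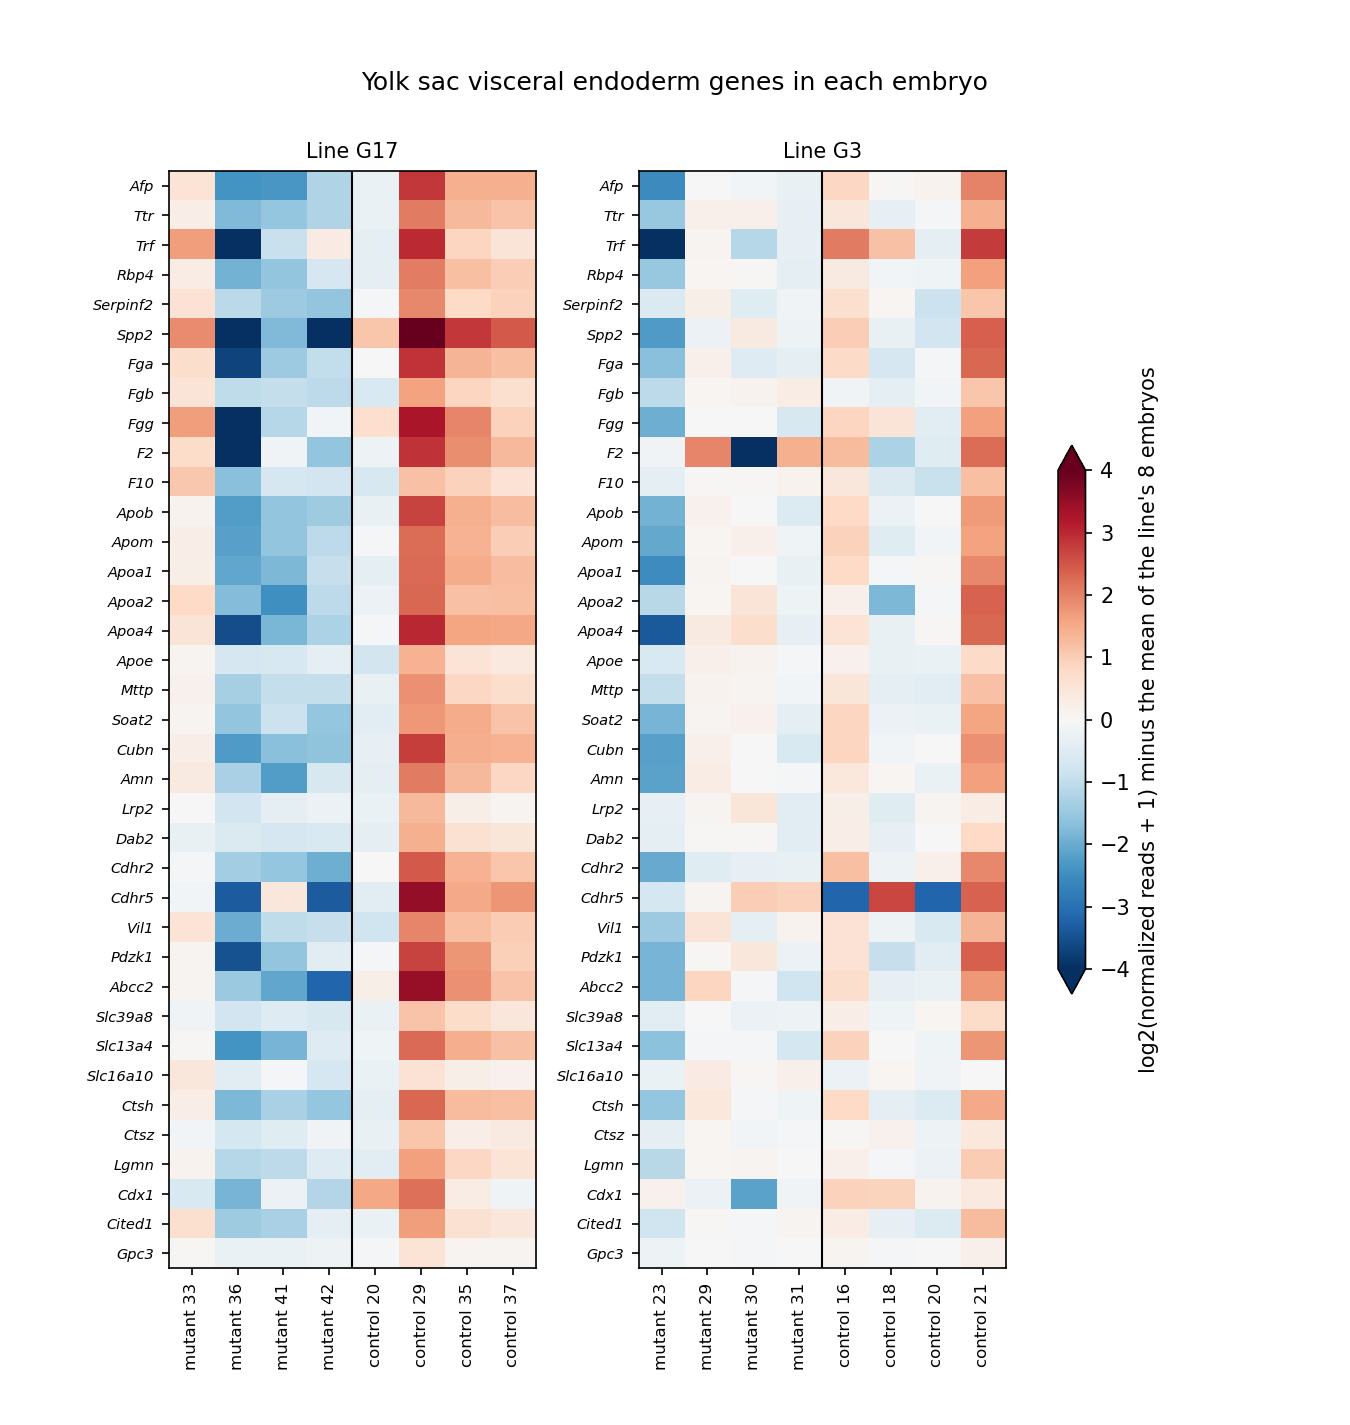
Each cell is 1 member (down the page) in 1 embryo (across), as log2(normalized reads + 1) minus the mean of the line's 8 embryos; red is higher and blue lower, with mutants left of controls. The column of G17 control 29 is red throughout, G17 control 20 is paler than the other G17 controls, and the bluest columns are G17 mutant 36 and G3 mutant 23.

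**Figure D2:**
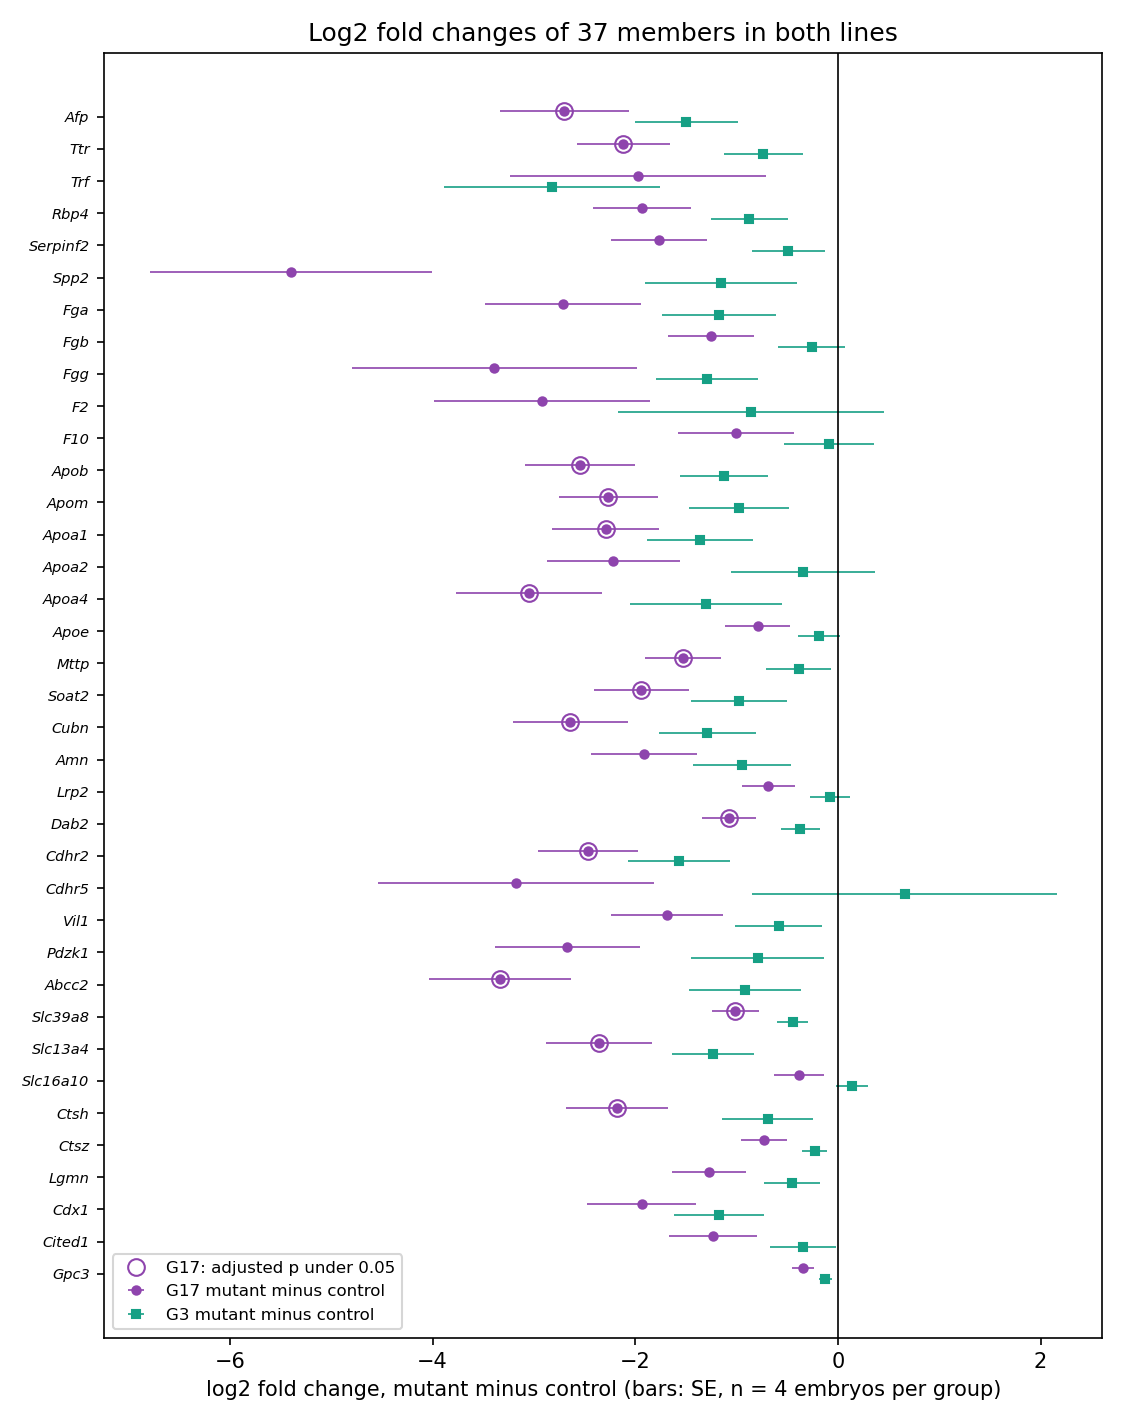
Points are log2 fold changes of the 37 members tested, mutant minus control, with SE bars (n = 4 embryos per group), for G17 (circles) and G3 (squares); open rings mark an adjusted p under 0.05. All 37 G17 points lie left of 0, from -5.40 to -0.35, and 35 of the 37 G3 points do.

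Among the serum transport and secreted proteins, 2 of 6 tested members fell in G17 and 5 of 6 in the mean of both lines. Afp, alpha-fetoprotein, the main serum protein made by yolk sac endoderm, had 4718, 613, 643 and 1391 normalized reads in G17 mutants, against 2695, 22727, 8680 and 8664 in G17 controls. In G3, Afp had 307, 1749, 1640 and 1457 in mutants, against 3171, 1862, 1960 and 7011 in controls. The 4 G3 mutants all lay below the 4 controls, whereas in G17 mutant 33 lay above control 20. Afp fell in G17 (log2 fold change -2.70 ± 0.64, adjusted p = 0.0397) and over both lines (-2.10 ± 0.47, adjusted p = 0.00615); its G3 value was -1.49 ± 0.51. Ttr, transthyretin, which carries thyroid hormone, had 5632, 1377, 1582 and 2046 normalized reads in G17 mutants, against 3868, 19660, 11339 and 10313 in G17 controls. In G3, Ttr had 1238, 4079, 4069 and 2859 in mutants, against 4928, 2822, 3356 and 9661 in controls. Control 29 of G17 and control 21 of G3 were highest, and both lines overlapped. Ttr fell in G17 (log2 fold change -2.12 ± 0.46, adjusted p = 0.0275) and over both lines (-1.43 ± 0.34, adjusted p = 0.0104); its G3 value was -0.73 ± 0.39. Rbp4, the plasma carrier of retinol, had 4311, 935, 1163 and 2177 normalized reads in G17 mutants, against 2694, 14538, 8084 and 6896 in G17 controls. In G3, Rbp4 had 757, 2265, 2225 and 1667 in mutants, against 2767, 2013, 1917 and 6721 in controls. The same pair of controls stood highest and mutants 36 and 23 lowest. Rbp4 passed over both lines (log2 fold change -1.40 ± 0.35, adjusted p = 0.0143), with -1.93 ± 0.49 in G17 (adjusted p = 0.0519) and -0.87 ± 0.38 in G3. 

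Serpinf2, the alpha-2-antiplasmin that inhibits plasmin, had 642, 201.4, 155 and 141 normalized reads in G17 mutants, against 405, 1611, 742 and 804 in G17 controls. In G3, Serpinf2 had 209, 368, 224 and 286 in mutants, against 492, 329, 173 and 683 in controls. Only G17 mutant 33 among the G17 mutants reached the range of its controls, while G3 groups overlapped widely. Serpinf2 passed over both lines (log2 fold change -1.13 ± 0.33, adjusted p = 0.0335), with -1.77 ± 0.47 in G17 (adjusted p = 0.068) and -0.49 ± 0.36 in G3. Spp2, a secreted phosphoprotein, had 161, 0, 12 and 0 normalized reads in G17 mutants, against 94.5, 938, 310.3 and 239 in G17 controls. In G3, Spp2 had 10.8, 47.0, 71.7 and 48.2 in mutants, against 110.3, 44.8, 31.8 and 298 in controls. With 2 G17 mutants at 0, its fitted G17 change of -5.40 exceeds what the group means show, the mutant mean being 10.9% of the control mean. Spp2 passed over both lines (log2 fold change -3.28 ± 0.88, adjusted p = 0.0204), with -5.40 ± 1.39 in G17 (adjusted p = 0.0579) and -1.15 ± 0.75 in G3. Trf, transferrin, which carries iron, had 105, 0, 17.2 and 41.3 normalized reads in G17 mutants, against 24.4, 261, 59.6 and 46.7 in G17 controls; it had 0, 19.7, 7.69 and 14.4 in G3 mutants, against 79.5, 42.2, 13.8 and 132 in G3 controls. It passed in neither line nor over both (adjusted p = 0.492 in G17, 0.177 in G3 and 0.1 over both). Alb, serum albumin, had 0 reads in all 16 embryos, which allows at most 2.53 to 3.84 normalized reads in an embryo, counting error only. In G3 the 6 tested fold changes of this group lay between -2.82 and -0.49, with adjusted p between 0.133 and 0.516.

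None of the 5 clotting genes passed within a line in limma, edgeR or DESeq2 (0 each), although 4 in G17 and 1 in G3 had an unadjusted p under 0.05. Fga, the alpha chain of fibrinogen, had 455, 20.4, 100.4 and 138 normalized reads in G17 mutants, against 272, 2056, 708 and 639 in G17 controls. In G3, Fga had 53.3, 200.2, 120.4 and 134 in mutants, against 295, 107, 169 and 849 in controls. G17 mutant 36 was lowest, far under the other mutants, and G17 control 29 highest. Fga passed over both lines (log2 fold change -1.94 ± 0.54, adjusted p = 0.0248), with -2.71 ± 0.77 in G17 (adjusted p = 0.085) and -1.17 ± 0.56 in G3. Fgb, the beta chain, whose gene lies beside Fga on the other strand, had 1304, 451, 473 and 439 normalized reads in G17 mutants, against 596, 2797, 1654 and 1433 in G17 controls. In G3, Fgb had 309.6, 684, 708 and 788 in mutants, against 588, 492, 596 and 1399 in controls. Mutant 33 stood apart from the other G17 mutants, which lay close together, and the G3 groups overlapped. Its log2 fold changes were -1.25 ± 0.43 in G17 and -0.26 ± 0.33 in G3, with adjusted p of 0.151 and 0.749. The G3 value turned to 0.07 without control 21 and 0.05 without mutant 23. Fgg, the gamma chain, had a G17 fold change of -3.39 ± 1.40 (mutant 36 was at 0) and a G3 fold change of -1.29 ± 0.50. F2 (prothrombin) and F10 (factor X) had G17 fold changes of -2.92 ± 1.06 and -1.01 ± 0.58, with adjusted p of 0.182 and 0.429.

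The lipid carriers and lipoprotein assembly genes, the largest group, held the most calls of any group, 6 of 8 tested in G17 and 6 of 9 over both lines. Their share was not the highest. In G17 the membrane transporters had the same share (3 of 4). Over both lines, shares were higher for lysosomal proteases (3 of 3), serum transport proteins (5 of 6), and endocytic genes and membrane transporters (3 of 4 each). Apob, the structural protein of chylomicron and very-low-density particles, had 15418, 3020, 4748 and 5265 normalized reads in G17 mutants, against 11562, 92101, 37980 and 33571 in G17 controls. In G3, Apob had 2386, 10049, 9094 and 6133 in mutants, against 15475, 7528, 8976 and 28910 in controls. Control 29 was highest by a wide margin, and G17 control 20 lay below mutant 33. Apob fell in G17 (log2 fold change -2.55 ± 0.54, adjusted p = 0.0242) and over both lines (-1.84 ± 0.40, adjusted p = 0.00509); its G3 value was -1.12 ± 0.44. Apom, a carrier of sphingosine phosphate, had 1699, 310.0, 471 and 672 normalized reads in G17 mutants, against 1350, 6559, 3681 and 2758 in G17 controls. In G3, Apom had 231, 1017, 1106 and 865 in mutants, against 1839, 684, 893 and 2973 in controls. Mutant 23 was the low embryo of G3, and the other G3 mutants lay between controls 18 and 16. Apom fell in G17 (log2 fold change -2.27 ± 0.49, adjusted p = 0.0263) and over both lines (-1.62 ± 0.40, adjusted p = 0.0117); its G3 value was -0.97 ± 0.49. Apoa1, the main protein of high-density lipoprotein, had 7015, 1396, 1701 and 3138 normalized reads in G17 mutants, against 4531, 28784, 16555 and 13965 in G17 controls. In G3, Apoa1 had 662, 4104, 3715 and 3054 in mutants, against 6550, 3675, 3873 and 14414 in controls. Controls 29 and 21 were highest and mutants 36 and 23 lowest in their lines. Apoa1 fell in G17 (log2 fold change -2.29 ± 0.53, adjusted p = 0.0348) and over both lines (-1.83 ± 0.42, adjusted p = 0.00815); its G3 value was -1.36 ± 0.52. Apoa4, a lipid-binding apolipoprotein of chylomicrons encoded beside Apoa1, had 1066, 63.1, 210.2 and 307 normalized reads in G17 mutants, against 722, 6023, 2204 and 2188 in G17 controls. In G3, Apoa4 had 37, 502, 629 and 311 in mutants, against 573, 319, 399.9 and 1900 in controls. The spread was among the widest of the set, with mutants 36 and 23 lowest. Apoa4 fell in G17 (log2 fold change -3.05 ± 0.72, adjusted p = 0.0397) and over both lines (-2.18 ± 0.59, adjusted p = 0.0232); its G3 value was -1.30 ± 0.75.

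Apoe, a ligand of lipoprotein receptors made by many tissues, was the most abundant member per exon length in G17, at 208.0 FPKM (fragments scaled to exon length and library depth) in G17 mutants, against 388.0 in G17 controls. Apoe had 25406, 14988, 15345 and 17995 normalized reads in G17 mutants, against 14318, 61487, 34643 and 31061 in G17 controls. In G3, Apoe had 11786, 20654, 20123 and 17009 in mutants, against 20290, 14707, 15219 and 30781 in controls. G17 mutants all lay at or above the lowest control, control 20, and Apoe did not pass (adjusted p = 0.236 in G17, 0.706 in G3 and 0.187 over both). Mttp, the transfer protein that loads lipid onto ApoB, had 2859, 1023, 1323 and 1315 normalized reads in G17 mutants, against 2080, 9046, 4563 and 4134 in G17 controls. In G3, Mttp had 909.9, 1950, 1915 and 1647 in mutants, against 2450, 1330, 1279 and 3940 in controls. Again G17 control 20 lay below mutant 33 and above the other mutants. Mttp fell in G17 (log2 fold change -1.53 ± 0.38, adjusted p = 0.0467) and over both lines (-0.96 ± 0.28, adjusted p = 0.0347); its G3 value was -0.39 ± 0.32. Soat2, which makes cholesteryl esters for lipoproteins, had 469, 143, 240.2 and 147 normalized reads in G17 mutants, against 313, 1429, 1205 and 964 in G17 controls. In G3, Soat2 had 88.5, 347, 363 and 250.4 in mutants, against 593, 273, 269 and 969 in controls. All G17 mutants but 33 lay below every control. Soat2 fell in G17 (log2 fold change -1.94 ± 0.47, adjusted p = 0.0414) and over both lines (-1.46 ± 0.37, adjusted p = 0.0151); its G3 value was -0.98 ± 0.47. Apoa2 did not pass (adjusted p = 0.0975 in G17, 0.855 in G3 and 0.152 over both). Apoc2, the cofactor of lipoprotein lipase, was at 0 in all 8 mutants; its controls had 0, 8.61, 25.6 and 0 in G17 and 24.4, 24.5, 0 and 20.6 in G3 (adjusted p = 0.0765 over both lines).

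**Figure D3:**
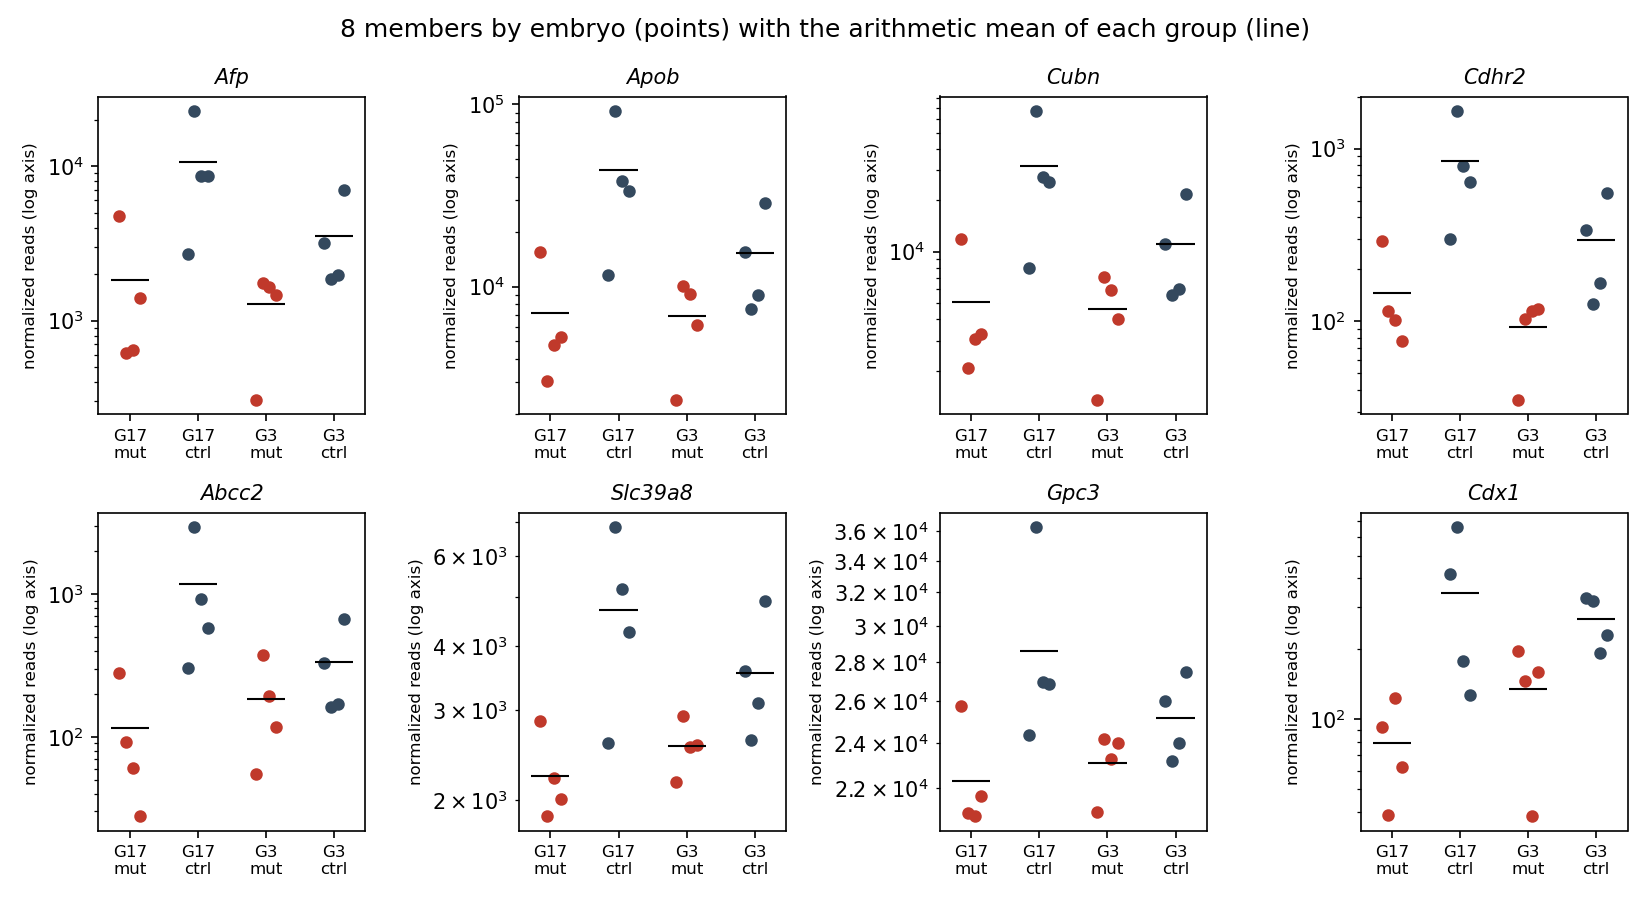
Points are normalized reads of 8 members in single embryos on a log axis, in the order G17 mutants, G17 controls, G3 mutants and G3 controls; lines are group means. Afp, Apob and Cubn spread widely within a line, whereas Gpc3 stays between 20869 and 36254 in all 16 embryos.

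Of the endocytic genes, Cubn and Dab2 fell in G17, and Amn joined them over both lines. Cubn, cubilin, the peripheral receptor for cobalamin bound to intrinsic factor and other ligands, had 11842, 2070, 3073 and 3273 normalized reads in G17 mutants, against 7963, 66919, 27242 and 25740 in G17 controls. In G3, Cubn had 1348, 7063, 5980 and 4013 in mutants, against 11082, 5584, 6055 and 21802 in controls. Control 29 of G17 and control 21 of G3 held the highest values, and mutants 36 and 23 the lowest. Cubn fell in G17 (log2 fold change -2.64 ± 0.57, adjusted p = 0.0263) and over both lines (-1.97 ± 0.43, adjusted p = 0.00509); its G3 value was -1.29 ± 0.48. Amn, amnionless, the membrane partner that anchors cubilin, had 1333, 419, 221 and 671 normalized reads in G17 mutants, against 793, 4414, 2585 and 1859 in G17 controls. In G3, Amn had 146, 804, 652 and 633 in mutants, against 884, 691, 548 and 2028 in controls. In G17 the mutants other than 33 lay below every control. Amn passed over both lines (log2 fold change -1.43 ± 0.41, adjusted p = 0.0292), with -1.91 ± 0.53 in G17 (adjusted p = 0.0741) and -0.95 ± 0.49 in G3. Dab2, the clathrin adaptor for these receptors, had 11409, 9309, 8767 and 9205 normalized reads in G17 mutants, against 10783, 37393, 21498 and 19463 in G17 controls. In G3, Dab2 had 8196, 11173, 11181 and 7813 in mutants, against 12942, 8501, 10815 and 18714 in controls. Its G17 mutants lay close together, and 3 of them were below all controls. Dab2 fell in G17 (log2 fold change -1.07 ± 0.26, adjusted p = 0.0451) and over both lines (-0.72 ± 0.18, adjusted p = 0.0156); its G3 value was -0.37 ± 0.19. Lrp2, megalin, which is also made by the neural tube, did not pass: its fold changes were -0.69 ± 0.26 in G17 (adjusted p = 0.198) and -0.08 ± 0.19 in G3 (adjusted p = 0.881).

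Among brush border genes, Cdhr2 alone passed within G17 in limma and edgeR, while DESeq2 also called Pdzk1 lower (adjusted p = 0.0451). Cdhr2, a protocadherin that links the tips of microvilli, had 293, 115, 102 and 76.8 normalized reads in G17 mutants, against 298, 1651, 795 and 644 in G17 controls. In G3, Cdhr2 had 35.2, 104, 115 and 118 in mutants, against 339, 126, 167 and 556 in controls. Mutants lay below controls in both lines without overlap, though by a narrow margin in each (293 against 298 in G17 and 118 against 126 in G3). Cdhr2 fell in G17 (log2 fold change -2.46 ± 0.49, adjusted p = 0.0182) and over both lines (-2.02 ± 0.39, adjusted p = 0.00193); its G3 value was -1.57 ± 0.50. Cdhr2 was also the only member that the authors' deposited table called in both lines, with adjusted p of 4.1e-05 in G17 and 0.0387 in G3. Vil1, villin, which bundles actin in microvilli, had 1267, 215, 423 and 454 normalized reads in G17 mutants, against 489.5, 3341, 1973 and 1745 in G17 controls. In G3, Vil1 had 194, 758, 405 and 577 in mutants, against 792, 462, 348 and 1369 in controls. Mutant 33 lay among the G17 controls, and G3 groups overlapped. It did not pass (adjusted p = 0.134 in G17, 0.52 in G3 and 0.0804 over both). Pdzk1, a scaffold for brush border transporters, had 246, 19.5, 75.5 and 169 normalized reads in G17 mutants, against 216, 1471, 768 and 443 in G17 controls. In G3, Pdzk1 had 38.8, 149, 195 and 123 in mutants, against 213, 75.2, 104 and 756 in controls. G17 mutants ran from very low in embryo 36 to above control 20 in embryo 33. Pdzk1 passed over both lines (log2 fold change -1.73 ± 0.54, adjusted p = 0.0498), with -2.67 ± 0.72 in G17 (adjusted p = 0.068) and -0.79 ± 0.66 in G3; the call over both lines held in 5 of 16 fits without an embryo (adjusted p up to 0.111). Cdhr5, the partner of Cdhr2 in the intestine, was low, at 0 to 12.9 in G17 mutants, against 6.37 to 115 in G17 controls, and did not pass in either line (adjusted p = 0.265 in G17 and 0.871 in G3). In G3 its mean was lower in mutants, 11.5 against 25.2 in controls, while its log2 fold change was 0.66 ± 1.51.

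Vil1 and Pdzk1, as well as Mttp and Ctsz, overlap a gene on the other strand that has reads here (Usp37, Gpr89, Trmt10a and Nelfcd), and since the strand setting of the counts is not given in the sources used here, their values are less certain.

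Of the 4 membrane transporters, 3 fell in G17 and the same 3 over both lines. Abcc2, an efflux pump for conjugated organic anions, had 281, 91.9, 60.9 and 27.8 normalized reads in G17 mutants, against 305, 2950, 921 and 578 in G17 controls. In G3, Abcc2 had 55.1, 373, 193 and 118 in mutants, against 331, 162, 169.7 and 671 in controls. In G17 no mutant reached a control, though mutant 33 came near control 20; in G3 mutant 29 was second highest of 8. Abcc2 fell in G17 (log2 fold change -3.33 ± 0.70, adjusted p = 0.0228) and over both lines (-2.13 ± 0.50, adjusted p = 0.00886); its G3 value was -0.92 ± 0.55. Slc39a8, a zinc and manganese importer, had 2855, 1860, 2209 and 2006 normalized reads in G17 mutants, against 2586, 6840, 5180 and 4260 in G17 controls. In G3, Slc39a8 had 2168, 2917, 2540 and 2557 in mutants, against 3570, 2625, 3098 and 4901 in controls. Mutants of each line lay close together, and 3 of 4 were below all controls. Slc39a8 fell in G17 (log2 fold change -1.01 ± 0.23, adjusted p = 0.0355) and over both lines (-0.73 ± 0.16, adjusted p = 0.00459); its G3 value was -0.45 ± 0.16. Slc13a4, a sulfate transporter, had 1962, 368, 531 and 1329 normalized reads in G17 mutants, against 1690, 9136, 5252 and 4320 in G17 controls. In G3, Slc13a4 had 448, 1370, 1327 and 852 in mutants, against 2638, 1390, 1233 and 4756 in controls. The 3 G3 controls 16, 18 and 21 lay above all mutants and control 20 did not. Slc13a4 fell in G17 (log2 fold change -2.36 ± 0.52, adjusted p = 0.0298) and over both lines (-1.80 ± 0.38, adjusted p = 0.00392); its G3 value was -1.24 ± 0.40. Slc16a10, a transporter of aromatic amino acids, did not pass, with fold changes of -0.38 ± 0.25 in G17 and 0.14 ± 0.16 in G3 (adjusted p = 0.497 and 0.713).

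All 3 lysosomal proteases were lower over both lines with all embryos, and Ctsh also fell within G17. Without single embryos the call over both lines held in 16 of 16 fits for Ctsh, but in 5 for Ctsz and 6 for Lgmn (adjusted p up to 0.0921 and 0.0919). Ctsh, cathepsin H, an aminopeptidase, had 1559, 370.3, 528 and 438 normalized reads in G17 mutants, against 991, 6312, 3074 and 2941 in G17 controls. In G3, Ctsh had 353, 1380, 988 and 910.3 in mutants, against 1788, 799, 704 and 2974 in controls. Mutant 33 was the only G17 mutant above a control, and G3 mutant 29 lay above controls 18 and 20. Ctsh fell in G17 (log2 fold change -2.18 ± 0.50, adjusted p = 0.0355) and over both lines (-1.44 ± 0.38, adjusted p = 0.0199); its G3 value was -0.69 ± 0.45. Ctsz, cathepsin Z, a carboxypeptidase, had 4401, 2931, 3414 and 4284 normalized reads in G17 mutants, against 3907, 10324, 5706 and 6148 in G17 controls. In G3, Ctsz had 3074, 4234, 3673 and 3856 in mutants, against 4158, 4509, 3449 and 5358 in controls. Its range was narrow and the groups overlapped in both lines. Ctsz passed over both lines (log2 fold change -0.48 ± 0.15, adjusted p = 0.0415), with -0.73 ± 0.23 in G17 (adjusted p = 0.118) and -0.23 ± 0.12 in G3. Lgmn, legumain, which cleaves after asparagine, had 5796, 2360, 2506 and 3675 normalized reads in G17 mutants, against 3793, 16215, 9159 and 7635 in G17 controls. In G3, Lgmn had 1758, 3990, 4074 and 3749 in mutants, against 4330, 3564, 3228 and 7588 in controls. G17 mutant 33 again lay above control 20, and mutant 23 was the low embryo of G3. Lgmn passed over both lines (log2 fold change -0.86 ± 0.26, adjusted p = 0.0399), with -1.27 ± 0.36 in G17 (adjusted p = 0.0853) and -0.45 ± 0.28 in G3.

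None of the 3 regulators passed within a line in limma or edgeR, though DESeq2 called 2 lower in G17, and all 3 had an unadjusted p under 0.05 there. Cdx1, a homeobox factor that is also expressed in the caudal embryo, had 92.5, 39.0, 123 and 62.4 normalized reads in G17 mutants, against 417, 661, 176 and 127 in G17 controls. In G3, Cdx1 had 196, 146, 38.4 and 158 in mutants, against 329.9, 318, 191 and 229 in controls. In G17 the mutants lay below all controls without overlap, and control 20 was among the 2 highest embryos, as for no other member. Cdx1 passed over both lines (log2 fold change -1.55 ± 0.38, adjusted p = 0.0113), with -1.94 ± 0.54 in G17 (adjusted p = 0.0788) and -1.17 ± 0.45 in G3. The authors' deposited table called it in G17 (adjusted p = 0.00769) but not in G3 (0.427). Cited1, a transcriptional coregulator of the early yolk sac, had 2187, 522, 567 and 1060 normalized reads in G17 mutants, against 1158, 4432, 2150 and 1899 in G17 controls. In G3, Cited1 had 478, 869, 811 and 903 in mutants, against 1031, 668, 571 and 1994 in controls. It did not pass (adjusted p = 0.169 in G17, 0.642 in G3 and 0.121 over both). Gpc3, a cell surface proteoglycan that restrains growth and is made widely in mesoderm, had 25750, 20980, 20869 and 21678 normalized reads in G17 mutants, against 24384, 36254, 26967 and 26846 in G17 controls. In G3, Gpc3 had 21025, 24175, 23287 and 23991 in mutants, against 26029, 23197, 24011 and 27513 in controls. Differences among embryos were small, and G17 mutant 33 alone reached the controls of its line. Gpc3 passed over both lines (log2 fold change -0.23 ± 0.07, adjusted p = 0.0318), with -0.35 ± 0.11 in G17 (adjusted p = 0.116) and -0.12 ± 0.06 in G3.

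Mutants lay below controls without overlap for 3 of 37 members in G17 (Cdhr2, Abcc2 and Cdx1), where 4.54% of all genes did, and for 2 of 37 in G3 (Afp and Cdhr2), where 5.61% did. The overlap in G17 came mostly from 2 embryos, control 20 and mutant 33. Summed over all members, G17 mutants had 153192, 71858, 79224 and 91629 normalized reads, against 113481, 503511, 258335 and 233421 in G17 controls. G3 mutants had 64597, 116185, 112089 and 93114, against 139911, 94790, 101996 and 222241 in G3 controls. Mutant 33 thus exceeded control 20 in G17, and 3 G3 mutants lay within the range of controls 16, 18 and 20 or just below it. The sums over all members amounted to between 0.157% and 1.16% of each library. They include Apoe and Gpc3, which other tissues also make, so they do not measure visceral endoderm RNA alone. Without Apob, Cubn, Apoe and Gpc3, sums were 30799 to 74775 in G17 mutants, against 55254 to 246750 in G17 controls. In G3 they were 28052 to 54244 in mutants, against 43775 to 113230 in controls. Groups thus overlapped in both lines without these genes too.

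Members moved together from embryo to embryo. G17 control 29 was the highest of its line for 37 of 37 members, against 20% of all genes, and G17 mutant 36 the lowest for 27, against 17.1%. G3 control 21 was highest for 33 of 37 members, against 11.6% of all genes, and G3 mutant 23 lowest for 29, against 10.7%. Within groups of the same genotype, the median SD of members' log2 values was 1.0 in G17 mutants and 1.01 in G17 controls. It was 0.81 in G3 mutants and 0.88 in G3 controls. The median over all genes was 0.27, 0.29, 0.22 and 0.27 in the same order. Of 37 members, only 4, 0, 3 and 1, again in that order, were in the top decile of all genes by this SD. Most members were thus not among the most variable genes. Among the G3 embryos the median member fold change of -0.79 became -0.34 without control 21 and -0.37 without mutant 23. Without control 18, 2 members were called (Cdhr2 and Slc39a8), where 1.87% of all genes were called lower.

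As a description over the 8 embryos of a line, the Pearson correlation of a member with the mean of the standardized members, itself included, had a median of 0.958 in G17 and 0.955 in G3, and exceeded 0.8 in both lines for 31 of 37 members. Rbp4, Ctsh and Ttr followed the mean most closely (0.99, 0.99 and 0.98 in the line where it was smaller). Cdx1 (0.73 in G17 and 0.14 in G3), Cdhr5 (0.88 and 0.24), Slc16a10 (0.85 and 0.30), F2 (0.91 and 0.38) and Lrp2 (0.93 and 0.57) did so least, and in G3 these 5 did not share the pattern of the others. The highest embryo exceeded the lowest 106-fold for Abcc2, 95.4-fold for Apoa4, 37.1-fold for Afp, 32.3-fold for Cubn and 30.5-fold for Apob in G17, but 4.29-fold for Apoe, 4.17-fold for Lrp2, 2.42-fold for Slc16a10 and 1.74-fold for Gpc3. Also in G17, the ratio was 452 for F2 (1 read in its lowest embryo), 101 for Fga and 75.5 for Pdzk1. Of the members tested, Spp2, Trf, Fgg and Cdhr5 had 0 in their lowest G17 embryo and give no ratio.

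Outside the set, 8 of 17108 genes were most like the members by the smaller of their correlations within the 2 lines, each over 8 embryos that share libraries and scaling factors with the members. They were Hnf4a, Sec14l2, Npl, Slc7a8, 2610528J11Rik, Car7, Palm3 and Myo6, with 0.99 for Hnf4a and 0.95 to 0.97 for the others. Hnf4a, the nuclear receptor required for visceral endoderm function in the mouse, had 1283, 229, 336 and 395 normalized reads in G17 mutants, against 863, 5090, 2313 and 2238 in G17 controls. In G3, Hnf4a had 272, 788, 719 and 526 in mutants, against 1095, 607, 563 and 2037 in controls. The order of embryos was that of Afp at the extremes, with control 29 and control 21 highest and mutants 36 and 23 lowest. Hnf4a fell in G17 (-2.29 ± 0.52, adjusted p = 0.0342) and over both lines (-1.55 ± 0.37, adjusted p = 0.00964), but not in G3 (-0.81 ± 0.39, adjusted p = 0.298). Its G17 call was lost without any 1 of 6 embryos (controls 29, 35 and 37 and mutants 36, 41 and 42, adjusted p up to 0.113), and its call over both lines held in all 16 such fits.

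The 16 visceral endoderm regulators did not move one way, and their sums were 16776 to 24724 in G17 mutants, 18232 to 32193 in G17 controls, 18955 to 23248 in G3 mutants and 16108 to 19917 in G3 controls. Gata4 (4373 to 7971.5 normalized reads over all 16 embryos) and Gata6 (3966 to 7374) weigh most on these sums. Of the 16 regulators, 3 fell and 1 rose in G17, and 0 fell and 3 rose in G3. Over all genes tested, 1.16% were called lower and 1.87% higher in G17, and 1.63% and 2.35% in G3. Maf, a basic leucine zipper factor of visceral endoderm, had 496, 207, 245 and 348 normalized reads in G17 mutants, against 679, 1997, 1204 and 1095 in G17 controls. In G3, Maf had 250.1, 339, 443 and 396 in mutants, against 504, 307, 417 and 917 in controls. Maf fell in G17 (-1.91 ± 0.32, adjusted p = 0.00768) and over both lines (-1.20 ± 0.24, adjusted p = 0.00255), while G3 gave -0.50 ± 0.30 (adjusted p = 0.411), and its G17 call held without each embryo in turn. Cebpa, a factor of hepatocytes and adipocytes, had 219, 164, 275 and 279 normalized reads in G17 mutants, against 7.43, 0, 24.3 and 20.6 in G17 controls. In G3, Cebpa had 95.7, 117, 123 and 175 in mutants, against 0, 80.2, 13.8 and 10.3 in controls. It was higher in all mutants than in all controls of its line. Cebpa rose in G17 (4.80 ± 0.92, adjusted p = 0.0143) and over both lines (4.17 ± 0.75, adjusted p = 0.00109), while G3 gave 3.54 ± 1.03 (adjusted p = 0.076); the G17 call was lost without mutant 41 or 42 (adjusted p up to 0.0618). Gata6, Nr5a2 and Sox17, which also act in heart, epiblast or gut, rose in G3 (0.41 ± 0.10, 2.25 ± 0.48 and 0.65 ± 0.15, adjusted p = 0.0309, 0.0186 and 0.0295), and each of these calls was lost without at least 1 embryo, in 5, 2 and 6 of 8 fits. Over both lines, Gata6 (0.36 ± 0.08, adjusted p = 0.00583) and Nr5a2 (1.71 ± 0.34, adjusted p = 0.00227) rose. Both of these calls held in all 16 fits without an embryo. Sox17 did not pass over both lines (adjusted p = 0.148).

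A further list of 47 yolk sac endoderm genes was chosen from textbook knowledge, but with earlier results of these data known. It was lower for 4 of 39 tested genes in G17 and 10 of 42 over both lines, and higher for 0 in both. In G3, 1 of 35 was lower and 1 higher. Over all genes tested, 1.16% were called lower in G17, 4.58% over both lines and 1.63% in G3, where 2.35% were higher. As for the members, these counts are not independent support for a direction. The median fold change of this list was -0.93 in G17, -0.24 in G3 and -0.53 over both lines. Dgat2, which makes triglyceride, had 863, 541, 656 and 749.8 normalized reads in G17 mutants, against 1045, 1891, 1348 and 1415 in G17 controls. In G3, Dgat2 had 529.9, 635, 506 and 532 in mutants, against 1243, 992, 759.5 and 1325 in controls. Mutants lay below controls without overlap in both lines, unlike most members. Dgat2 fell in G17 (-1.01 ± 0.19, adjusted p = 0.0142) and over both lines (-0.98 ± 0.14, adjusted p = 8.2e-05), and in G3 (-0.94 ± 0.17, adjusted p = 0.0087), with all calls kept whichever embryo was left out. Slc2a2, a glucose transporter, and S100g, a calcium-binding protein, fell in G17 (-3.27 ± 0.66 and -3.41 ± 0.80, adjusted p = 0.0191 and 0.0384); each was lost in at least 5 of 8 fits that left out an embryo, and each passed over both lines in all 16. St14, a serine protease of epithelia, rose in G3 (0.47 ± 0.10, adjusted p = 0.0235), a call lost without control 16, mutant 23 or mutant 29.

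Markers of other tissues were measured beside these genes. The shares of all genes called in each line, given above, apply to the counts below. Summed levels of 11 parietal endoderm genes, several of them basement membrane genes with wide expression, were 99213 to 135360 normalized reads in G17 mutants, 90068 to 128950 in G17 controls, 109320 to 116590 in G3 mutants and 84560 to 94828 in G3 controls. Of these, 5 rose in G3 (Col4a1, Lama1, Pth1r, Col4a2 and Sparc) and Thbd rose in G17; the calls of Sparc and Thbd were each lost in 4 of 8 fits without an embryo. For 14 foregut and hepatic endoderm genes the sums were 18811 to 22722 in G17 mutants, 17060 to 25698 in G17 controls, 21657 to 22837 in G3 mutants and 15485 to 19133 in G3 controls; Epcam rose in both lines, Onecut1 and Cdh1 rose in G3, and Pyy fell in G17. Of these calls, Epcam held without each embryo, while Onecut1, Cdh1 and Pyy were lost in 3, 4 and 3 of 8 fits. The 12 primitive erythrocyte genes summed to 982 to 5798 in G17 mutants, 1454 to 4112 in G17 controls, 1436 to 2151 in G3 mutants and 966 to 2602 in G3 controls. The 10 trophoblast genes, most of whose reads came from the imprinted gene Peg10, summed to 41131 to 53656 in G17 mutants, 46526 to 83722 in G17 controls, 10053 to 43345 in G3 mutants and 37116 to 67043 in G3 controls, and the 9 macrophage genes to 535 to 629, 311 to 757, 394 to 588 and 200.47 to 874 in the same order. Other trophoblast genes varied far more than these sums. In G3 controls, Prl3d1 ran from 11.7 to 5937 normalized reads and Plac1 from 205 to 4366.5, against highest values of 615 and 397 in G3 mutants. G3 control 18 had the highest trophoblast sum of all embryos of its line, 67043. Of all these lists, Apoh, in the further yolk sac list, was the single gene at 0 in all 16 embryos. No gene of the erythrocyte, trophoblast or macrophage lists passed within a line in limma, edgeR or DESeq2, with 1, 2 and 0 genes at an unadjusted p under 0.05 in G17 and 3, 0 and 0 in G3. Only 12, 8 and 2 genes of these lists were tested in G17, and 10, 8 and 3 in G3. Most macrophage genes were thus not tested. G17 control 29, the embryo with the most member RNA, had the lowest cardiomyocyte sum of the 8 G17 embryos, 132550. Other G17 embryos did not follow this order. Control 35, next in member sum (258335), had a cardiomyocyte sum of 236860, and mutant 33 (member sum 153192) had the highest, 250350. Mutant 41, with a member sum of 79224, had 173090. The part of these other tissues in the member differences was not tested.

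**Figure D4:**
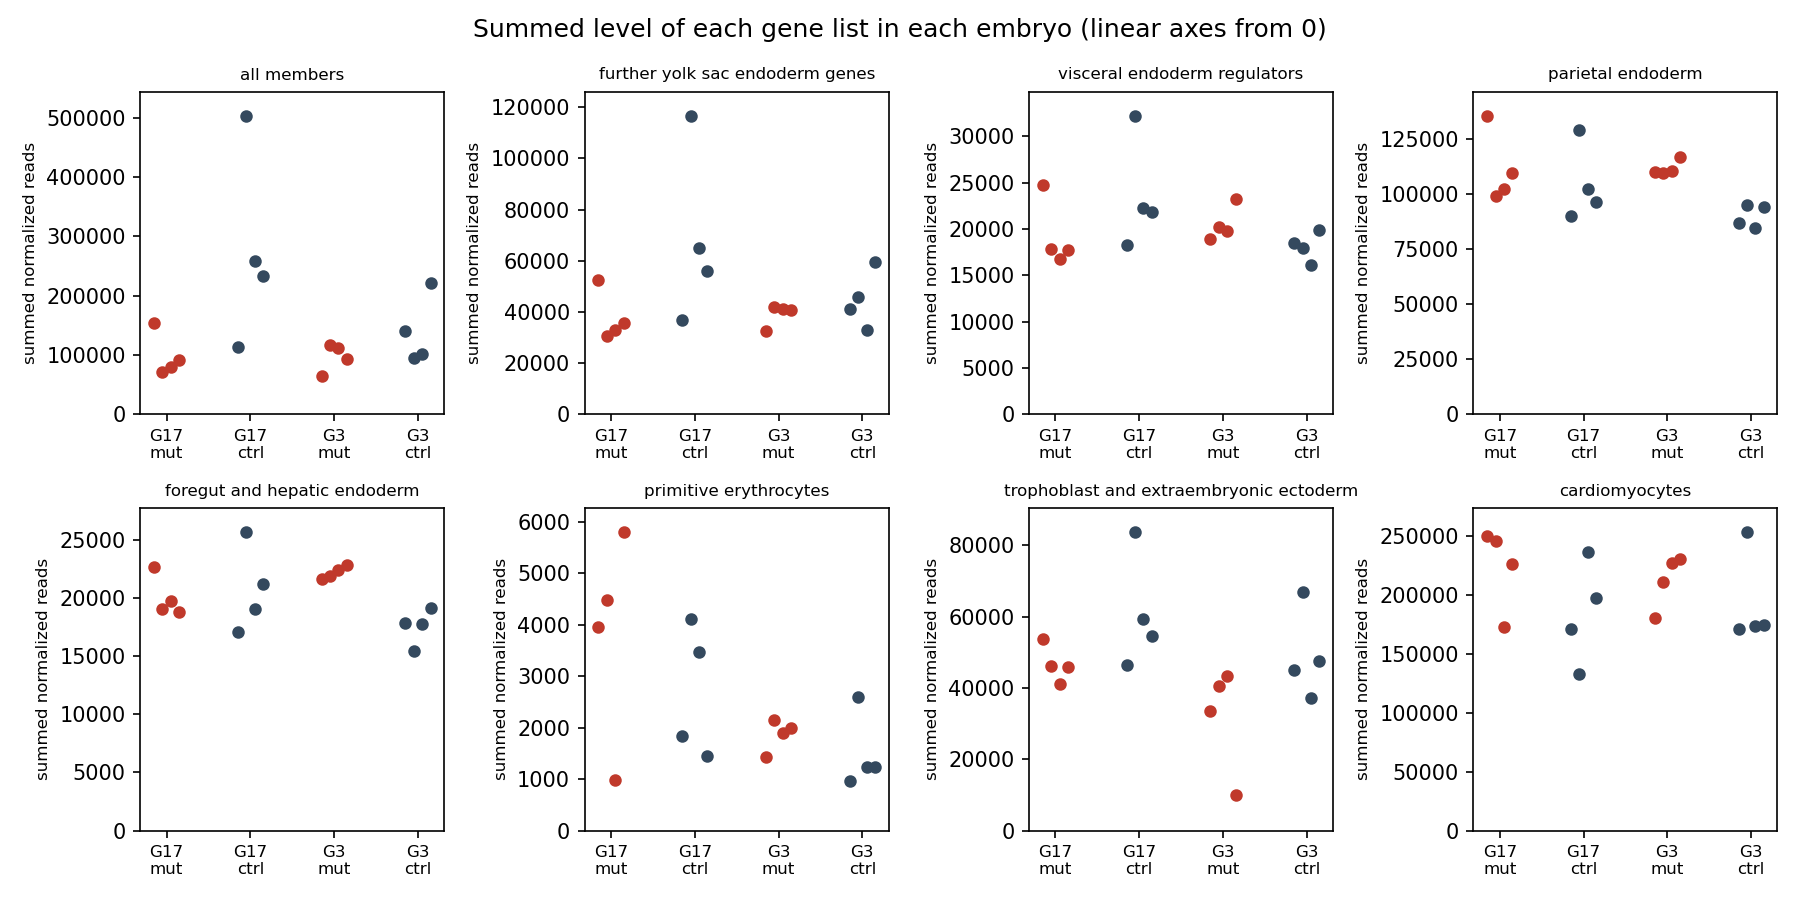
Points are the summed normalized reads of each gene list in single embryos, in the order G17 mutants, G17 controls, G3 mutants and G3 controls, on linear axes from 0. For all members, G17 mutants span 71858 to 153192 and G17 controls 113481 to 503511; the other lists plotted span narrower ranges relative to their level, apart from primitive erythrocytes and 1 low G3 mutant in the trophoblast panel.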

How the data were processed

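Total RNA with integrity numbers above 9.0 was read from both ends, 100 bases each, per the labels' protocols. HISAT2, featureCounts of Subread and DESeq2 were used on GRCm38, per the submitters' processing notes; tool versions and the strand setting were not given in the sources used here. For each line, the authors deposited a normalized signal per gene and embryo, that is reads divided by a size factor. Times that factor, 100% of values were whole within 0.1 of a read. The authors also deposited p-values and adjusted p-values of mutant against control. No sample column was left unused (0).

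In R 4.3.3, limma 3.58.1 with a mean-variance trend was fitted to log2(value + 1), keeping a gene when 4 or more embryos reached 10, per line, and over all 16 embryos with line as a term for the common effect and the interaction. Benjamini-Hochberg adjustment ran over all genes tested, with a threshold of 0.05. The tables were scaled separately, so levels are compared within a line. Alternatives were edgeR 4.0.16 and DESeq2 1.42.0 on recovered reads, the authors' table, TMM scaling, other pseudocounts, filters and thresholds, and each embryo left out. FPKM were computed from the recovered reads and merged GENCODE exons. The fits were tested on simulated data. A count of 0 allows 3 reads. Members and gene lists were chosen with earlier results of these data known. Members named with values in each embryo are those called in a line or over both lines, and the 2 most abundant of each functional group; genes of other lists are named where called, except that some called genes counted in the lists are not reported here by name.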

Additional observations from a re-analysis of the deposited data

Results flagged for a closer look

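Of 116 groups of 4 embryos examined over the 29 members given by embryo, 9 held an embryo whose gap to its nearest neighbour, as a share of the group's range of log2(value + 1), was above Dixon's critical value of 0.829; chance gives about 1 in 20 groups. In 8 of these the embryo was G3 mutant 23, the lowest of its group. Its share was 0.895 for Afp, 0.848 for Fgb, 0.843 for Apom and 0.838 for Apoa1. For the endocytic partner Amn it was 0.859, for the brush border gene Cdhr2 0.897, for the protease Lgmn 0.901 and for Cited1 0.831. The ninth was Fgb in G17 mutant 33, the highest of its group, at 0.931. Members vary together among embryos, so these 9 are not independent. Without G3 mutant 23, the median member fold change in G3 was -0.37, against -0.79 with it. Without G17 mutant 33, 25 members fell in G17 (1.38% of all genes called lower), against 15 with it (1.16%).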

How the results depend on the processing

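Of the 29 members given by embryo, 3 changed sign under an alternative, all in G3, where none of them passed. Without single embryos, the G3 log2 fold change lay between -0.427 and 0.0748 for Fgb, -0.318 and 0.037 for Apoe, and -0.581 and 0.0198 for Cited1; it was positive without control 21 for each, and for Fgb also without mutant 23 (0.0493). In G17, 15 members were called; the count was 7 with a pseudocount of 0.1, 23 in 1 fit of all 16 embryos, 24 at an adjusted p under 0.1 and 6 in the authors' deposited table, and 0 to 26 when an embryo was left out. It stayed within 1.5 times of 15 with a pseudocount of 5 (18), without a filter (10), with values of at least 50 (16), with TMM scaling (15), with edgeR (10) and with DESeq2 (19). The median member change in G17 lay between -2.56 and -1.63. In G3 the count of 0 became 2 with DESeq2 and 1 in the authors' deposited table, and was 0 to 2 without single embryos. Over both lines the 25 calls were 16 to 30 without single embryos and 19 to 28 under the other alternatives. The interaction stayed at 0 under every alternative. Except for some fits without an embryo, the shares of all genes called under these settings are not given here. Shifts over all genes are therefore not set apart from shifts in the members. The cause of these shifts was not tested. No paired analysis was possible because the labels give no litter by which mutants could be matched to controls.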
